A study of Mus musculus with 6 samples.

Results

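The BCL2 family decides whether mitochondria release the factors that start apoptosis. Its 10 members described here were chosen by gene name, from a list drawn up with earlier results of these data known, and all 10 were found among the 46452 genes of the table. They comprise the pro-survival genes Mcl1, Bcl2l1, Bcl2l2 and Bcl2, the effector gene Bak1, and the BH3-only genes Bid, Bad, Bcl2l11, Bmf and Hrk. The samples were hearts of 10-day-old mice, 3 labelled Nat10flox/flox (loxP-flanked alleles of the RNA acetyltransferase gene Nat10) and 3 labelled Nat10-CKO (a conditional knockout), each described as an independent biological replicate. The Cre driver, the deleted exons, the strain and whether either group carried further alleles are not given in the sources used here. The series asks what NAT10 does in the developing heart.

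Pro-survival proteins hold the effectors BAK and BAX in check at the outer mitochondrial membrane, and BH3-only proteins bind the pro-survival proteins or the effectors and so relieve that check. Once active, BAK and BAX permeabilise the membrane, cytochrome c leaves the mitochondria, and the apoptosome activates caspases. In heart muscle MCL1 and BCL-XL, the product of Bcl2l1, are known for keeping cardiomyocytes alive, and transcript levels say nothing of the cleavage, phosphorylation and turnover by which several of these proteins are controlled.

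Poly(A)-selected RNA was sequenced, and reads assigned to genes ranged from 31155521 to 38051266 over the 6 libraries. Values are FPKM, which divide a gene's fragments by its length in kilobases and by a library scale. Comparisons of level between genes rest on the deposited gene lengths, whose definition is not given. Nat10 itself was 3.75, 4.18 and 4.71 FPKM in the Nat10flox/flox libraries and 8.28, 8.66 and 10.2 FPKM in those labelled Nat10-CKO, so the target gene goes against its label at the level of the whole gene, and every direction below refers to the libraries as labelled. Cardiomyocyte markers were abundant in all 6 libraries, at a summed 8310 to 13993 FPKM over 8 genes. Nat10flox/flox replicate 1 and Nat10-CKO replicate 1 stood apart from the rest of their groups on principal components other than the first. The first of these held a summed 684 FPKM of 12 neuron markers and 90.1 FPKM of 4 glia markers, against 8.64 to 43.1 and 1.83 to 2.52 FPKM in the other 5 libraries.

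Of the 10 members, 4 were higher in those labelled Nat10-CKO (Bcl2l1, Bid, Bcl2 and Bak1), 2 were lower (Bcl2l2 and Bcl2l11), 3 did not pass the test (Mcl1, Bad and Bmf), and Hrk was too low to be tested. The test was limma on log2(FPKM + 1) over the 11996 genes with a mean of at least 1 FPKM, with a Benjamini-Hochberg adjusted p under 0.05 as the threshold. Over all tested genes 40.5% passed, 24.4% higher and 16% lower, so a call is common in this comparison and the members' counts are to be read against those shares. The groups did not overlap for 7 of the 9 tested members, 5 with higher and 2 with lower values, against 55.9% of all tested genes (31.5% higher and 24.4% lower). The median log2 fold change was 0.33 over the 9 tested members and 0.03 over all tested genes. Without both libraries that stand apart, an alternative chosen after seeing the data, 3 members were higher and 2 lower, and Bak1 was the member lost (adjusted p = 0.0555 by limma). The higher members were 2 without Nat10flox/flox replicate 1 or 3 or without Nat10-CKO replicate 2, and the lower members were 1 when any single library other than Nat10-CKO replicate 1 was left out.

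**Figure D1:**
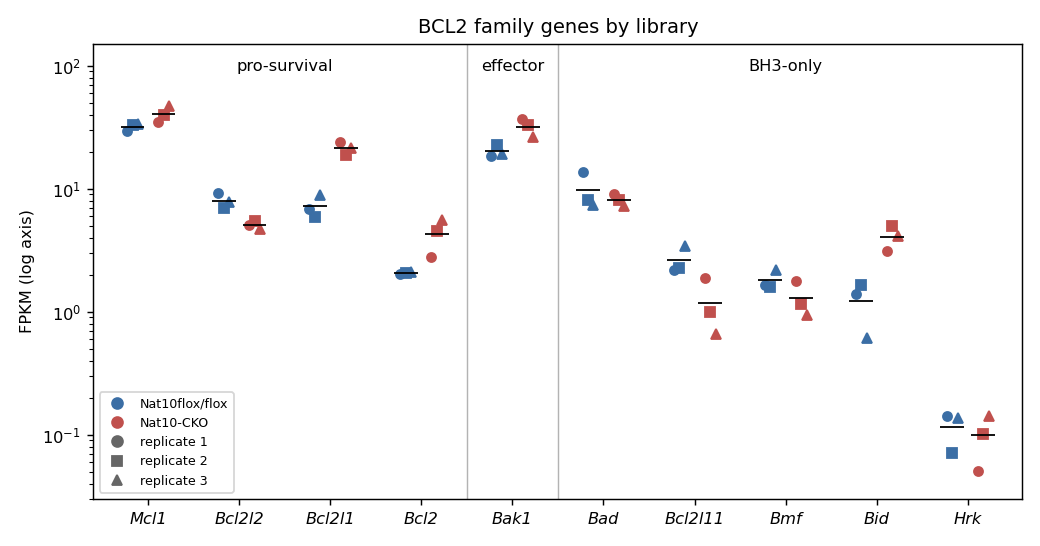
FPKM of the 10 BCL2 family genes in each library on a log axis, grouped by role; symbols mark the replicate number, colours the label and bars the group mean of 3 libraries. Mcl1 was highest in both groups, at 31.9 and 40.5 FPKM on average, and Hrk lowest, at 0.116 and 0.0984 FPKM.

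Of the 4 pro-survival genes 2 rose, 1 fell and 1 missed the threshold. Bcl2l1 (gene ID 12048, chromosome 2, 152600652 to 152675723, minus strand, GRCm39), the gene of BCL-XL, was 6.77, 5.92 and 8.85 FPKM in the Nat10flox/flox libraries and 23.8, 18.7 and 21.3 FPKM in those labelled Nat10-CKO. All 3 libraries labelled Nat10-CKO lay far above every Nat10flox/flox value. Its mean rose from 7.18 ± 1.51 to 21.3 ± 2.55 FPKM (SD, n = 3 per group) and was thus 2.96 times as high (log2 fold change 1.45 ± 0.16 SE, limma adjusted p = 0.000933). It passed under all 20 alternatives in which a fold change was refitted, with log2 fold changes of 1.28 to 1.6. Cox4i2, on the opposite strand, shares 6306 bases of its span with Bcl2l1 and was lower in those labelled Nat10-CKO, at 3.17 to 7.16 FPKM against 10.3 to 10.8 FPKM.

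Bcl2 (gene ID 12043, chromosome 1, 106465906 to 106642020, minus strand), the founding member, was much less abundant than Bcl2l1. It was 2.02, 2.05 and 2.09 FPKM in the Nat10flox/flox libraries and 2.79, 4.55 and 5.51 FPKM in those labelled Nat10-CKO. The first group was tight and the second spread over a wide range, and the groups did not overlap. Bcl2 rose from 2.06 ± 0.0341 to 4.29 ± 1.38 FPKM, 2.08-fold over both means (SD, n = 3 per group; log2 fold change 0.76 ± 0.20 SE, limma adjusted p = 0.0235). It missed the threshold without Nat10flox/flox replicate 1 (adjusted p = 0.0584), 2 (0.0692) or 3 (0.0665), without Nat10-CKO replicate 2 (0.0772) or 3 (0.055) and with no filter on low values (0.0683).

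Bcl2l2 (gene ID 12050, chromosome 14, 55120804 to 55136384, plus strand), the gene of the pro-survival protein BCL-W, went the other way. It was 9.24, 6.96 and 7.77 FPKM in the Nat10flox/flox libraries and 5.05, 5.44 and 4.74 FPKM in those labelled Nat10-CKO, where every value lay below the lowest Nat10flox/flox value. The mean fell from 7.99 ± 1.15 to 5.08 ± 0.353 FPKM (SD, n = 3 per group), or 1.57-fold (log2 fold change -0.56 ± 0.12 SE, limma adjusted p = 0.0114). It missed the threshold with protein-coding genes rescaled to 1 shared FPKM total (adjusted p = 0.0535). Its span shares 4785 bases with Pabpn1 on the same strand, so reads of the shared part are uncertain, and Pabpn1 was higher in those labelled Nat10-CKO (1.87 ± 0.434 to 2.99 ± 0.210 FPKM, SD, n = 3 per group, adjusted p = 0.0327 by limma).

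Mcl1 (gene ID 17210, chromosome 3, 95564017 to 95583553, plus strand), whose protein is short-lived and binds BAK, had the highest FPKM of the members in every library but Nat10-CKO replicate 1, where Bak1 was higher. In that library Mcl1 had 11253 reads over a deposited length of 8725 bases, and Bak1 had 2732 over 2023 bases. Mcl1 was 29.2, 33.0 and 33.5 FPKM in the Nat10flox/flox libraries and 35.0, 39.5 and 46.9 FPKM in those labelled Nat10-CKO. The groups did not overlap but lay close together. The log2 fold change of 0.33 ± 0.14 (SE, 95% interval 0.00 to 0.65) did not pass (adjusted p = 0.0997 by limma). It passed without Nat10-CKO replicate 1 (adjusted p = 0.0355), with array weights (0.0229) and with protein-coding genes rescaled (0.0121).

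Summed over the 4 genes, the level was 47.2, 48.0 and 52.2 FPKM in the Nat10flox/flox libraries and 66.6, 68.2 and 78.4 FPKM in those labelled Nat10-CKO. Bcl2l1 made up 14.3%, 12.3% and 17% of that sum in the Nat10flox/flox libraries and 35.7%, 27.4% and 27.1% in those labelled Nat10-CKO. Bcl2l2 made up 14.5% to 19.6% and then 6.04% to 7.99%, and Mcl1 61.8% to 68.9% and then 52.5% to 59.8%. Bcl2l1 and Bcl2l2 stood at similar levels in the Nat10flox/flox libraries, with 0.733, 0.851 and 1.14 FPKM of Bcl2l1 per FPKM of Bcl2l2, and at 4.71, 3.43 and 4.49 in those labelled Nat10-CKO. These sums and ratios are descriptions, with no test, since the members were chosen with earlier results known. They also rest on the deposited gene lengths.

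**Figure D2:**
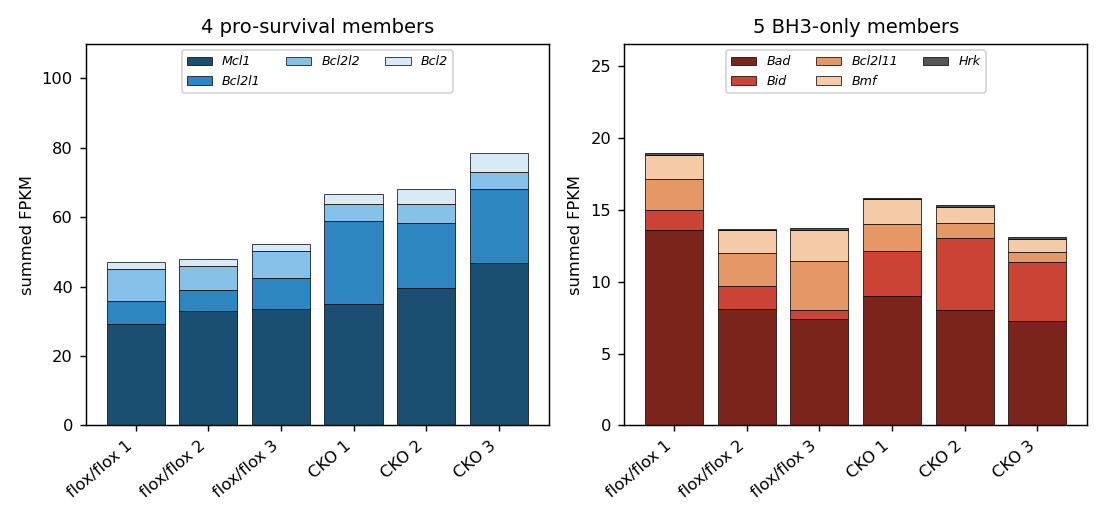
Summed FPKM of the 4 pro-survival genes (left) and the 5 BH3-only genes (right) in each library, stacked by gene. The pro-survival sums were 47.2 to 52.2 FPKM in the Nat10flox/flox libraries and 66.6 to 78.4 FPKM in those labelled Nat10-CKO, while the BH3-only sums overlapped, at 13.6 to 19.0 and 13.1 to 15.8 FPKM.

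Bak1 (gene ID 12018, chromosome 17, 27238786 to 27247601, minus strand), which encodes the effector BAK, was higher in those labelled Nat10-CKO. It was 18.3, 22.7 and 19.1 FPKM in the Nat10flox/flox libraries and 36.6, 32.9 and 26.3 FPKM in those labelled Nat10-CKO, with no overlap. The mean rose from 20.1 ± 2.37 to 32.0 ± 5.23 FPKM, or 1.59-fold (SD, n = 3 per group; log2 fold change 0.64 ± 0.15 SE, limma adjusted p = 0.0167). The call is near the threshold: it was lost without Nat10flox/flox replicate 1 (adjusted p = 0.0527) or 3 (0.0599), without Nat10-CKO replicate 2 (0.0575), under quantile normalization (0.105) and with the mitochondrially encoded genes left out (0.0698). The span of Ggnbp1, on the opposite strand, covers all 8816 bases of Bak1, and Ggnbp1 was lower in every library labelled Nat10-CKO (4.33 to 6.99 FPKM) than in any Nat10flox/flox library (11.4 to 14.6 FPKM).

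Bax, the other effector gene and no member of the list, was 27.7, 22.8 and 25.8 FPKM against 56.4, 50.9 and 43.6 FPKM. The mean rose from 25.4 ± 2.48 to 50.3 ± 6.40 FPKM, or 1.98-fold (SD, n = 3 per group; limma adjusted p = 0.00226). Bak1 and Bax together summed to 44.9 to 46.0 FPKM in the Nat10flox/flox libraries and 69.9 to 93.0 FPKM in those labelled Nat10-CKO. Effector and pro-survival sums were both higher in every library labelled Nat10-CKO than in any Nat10flox/flox library, and the pro-survival share of the summed FPKM of the 10 members and Bax overlapped between the groups (42.1%, 44.8% and 47.1% against 38.0%, 40.8% and 48.6%).

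Among the BH3-only genes, Bid and Bcl2l11 moved in opposite directions. Bid (gene ID 12122, chromosome 6, 120870080 to 120894074, minus strand) encodes a protein that caspase-8 cleaves and that carries death receptor signals to mitochondria. It was 1.4, 1.63 and 0.609 FPKM in the Nat10flox/flox libraries and 3.10, 4.99 and 4.13 FPKM in those labelled Nat10-CKO. Every library labelled Nat10-CKO lay above every Nat10flox/flox library, from 52 to 137 reads in the latter and from 274 to 416 in the former. The mean rose from 1.21 ± 0.536 to 4.07 ± 0.948 FPKM (SD, n = 3 per group), or 3.35-fold (log2 fold change 1.21 ± 0.23 SE, limma adjusted p = 0.00681). It passed under all 19 alternatives that tested it, with log2 fold changes of 0.995 to 1.83, the latter with limma's voom on recovered reads.

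Bcl2l11 (gene ID 12125, chromosome 2, 127967958 to 128004467, plus strand) encodes BIM, which binds all the main pro-survival proteins. It was 2.19, 2.26 and 3.44 FPKM in the Nat10flox/flox libraries and 1.87, 0.996 and 0.655 FPKM in those labelled Nat10-CKO. The groups did not overlap, but Nat10-CKO replicate 1 lay close to the lower Nat10flox/flox values. The mean fell from 2.63 ± 0.7 to 1.17 ± 0.625 FPKM (SD, n = 3 per group), or 2.24-fold (log2 fold change -0.76 ± 0.24 SE, limma adjusted p = 0.042). Leaving out any single library other than Nat10-CKO replicate 1 ended the call (adjusted p = 0.0581 to 0.131), as did quantile normalization (0.0704), protein-coding genes rescaled (0.0785) and no filter (0.111).

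Per library the level of Bid over that of Bcl2l11 was 0.641, 0.720 and 0.177 in the Nat10flox/flox libraries and 1.66, 5.01 and 6.31 in those labelled Nat10-CKO. Bid made up 4.43% to 11.95% of the summed BH3-only FPKM in the former and 19.6% to 32.6% in the latter. Most of that sum was Bad in every library, at 53.9% to 71.7% and then 52.7% to 57.1%, and the sum overlapped between the groups. The BH3-only share of the summed FPKM of the 10 members did not overlap. It was 22.4%, 16.2% and 16.2% in the Nat10flox/flox libraries and 13.3%, 13.1% and 11.1% in those labelled Nat10-CKO, and was not tested. Endothelial markers, all 7 lower by the test, summed to 328 to 391 FPKM in the Nat10flox/flox libraries and 191 to 203 FPKM in those labelled Nat10-CKO. Smooth muscle and pericyte markers, 3 of 6 tested lower, summed to 247 to 288 and 130 to 169 FPKM, erythroid markers, 5 of 5 lower, to 689 to 1780 and 423 to 534.6 FPKM, and macrophage markers, none of 7 passing, to 481 to 733 and 653 to 810 FPKM. Cardiomyocyte markers, 2 of 8 lower (Tnni3 and Pln) and 0 higher, summed to 12185 to 13993 and 8310 to 13767 FPKM. Fibroblast markers, none of 6 passing, summed to 384 to 407 and 341 to 567 FPKM. Of all tested genes 16% were lower. The part of these cell types in the differences of the members was not tested, and in whole hearts fewer cells of a type and less RNA per cell cannot be told apart.

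Bad, Bmf and Hrk did not separate the groups. Bad (gene ID 12015, chromosome 19, 6919229 to 6929273, plus strand), whose protein is held by 14-3-3 proteins when phosphorylated, had the highest FPKM of the BH3-only genes in every library. Its span shares 590 bases with Gpr137 on the opposite strand, so reads of the shared part are uncertain. Gpr137 was 8.82 to 11.4 FPKM in the Nat10flox/flox libraries and 8.76 to 10.8 FPKM in those labelled Nat10-CKO. Bad was 13.6, 8.10 and 7.42 FPKM in the Nat10flox/flox libraries and 9.03, 8.07 and 7.25 FPKM in those labelled Nat10-CKO. The high value came from Nat10flox/flox replicate 1, the library with the neuron and glia markers, and the part of those cells in it was not tested. The log2 fold change of -0.19 ± 0.22 (SE, 95% interval -0.71 to 0.33, adjusted p = 0.508 by limma) turned to 0.05 without that library (adjusted p = 0.775). Bmf (gene ID 171543, chromosome 2, 118359238 to 118385280, minus strand), whose protein binds dynein light chains, was 1.64, 1.58 and 2.16 FPKM against 1.77, 1.15 and 0.937 FPKM and overlapped between the groups (log2 fold change -0.30 ± 0.18 SE, 95% interval -0.72 to 0.12, adjusted p = 0.214 by limma). Hrk (gene ID 12123, chromosome 5, 118307829 to 118327543, plus strand), known from neurons, had 31, 12 and 26 reads in the Nat10flox/flox libraries and 10, 19 and 26 in those labelled Nat10-CKO. With no filter its log2 fold change was -0.02 (adjusted p = 0.741 by limma).

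**Figure D3:**
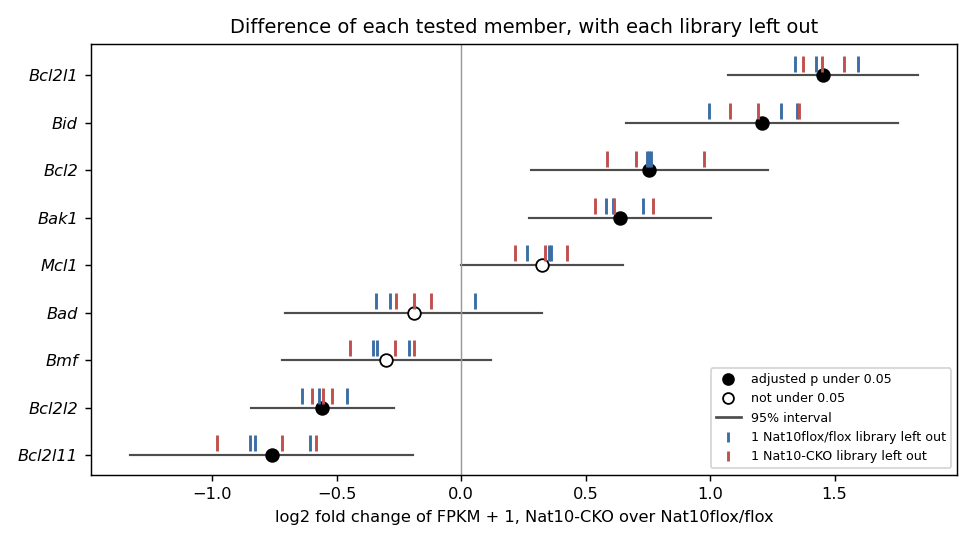
Log2 fold change of FPKM + 1 for the 9 tested members with its 95% interval (3 libraries per group); filled circles passed the threshold, and ticks above each line give the value when 1 library is left out. Bcl2l1 and Bid lay farthest to the right, at 1.45 and 1.21, and only Bad changed sign when a library was left out.

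The sequences just upstream of the annotated start are shown for the pro-survival gene and the BH3-only gene that rose most and for the BH3-only gene that fell. They are the 250 bases before the start on the gene's strand, 5′ to 3′, from RefSeq on build GRCm38.p6, a different build from the gene positions above, and capitals mark matches to the motifs named in the next paragraph. For Bcl2l1 the most upstream of its 3 starts is shown, and for Bcl2l11 the more upstream of its starts.
Bcl2l1, chr2:152831729-152831978, minus strand: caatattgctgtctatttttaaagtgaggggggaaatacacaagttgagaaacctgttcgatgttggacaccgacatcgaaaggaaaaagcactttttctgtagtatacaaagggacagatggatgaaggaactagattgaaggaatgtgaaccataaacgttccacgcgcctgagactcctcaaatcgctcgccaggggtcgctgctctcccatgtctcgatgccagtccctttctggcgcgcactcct
Bid, chr6:120916825-120917074, minus strand: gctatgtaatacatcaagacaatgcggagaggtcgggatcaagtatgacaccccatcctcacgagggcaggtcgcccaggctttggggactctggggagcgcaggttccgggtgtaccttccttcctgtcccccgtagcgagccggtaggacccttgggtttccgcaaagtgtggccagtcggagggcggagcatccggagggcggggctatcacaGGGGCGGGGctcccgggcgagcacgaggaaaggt
Bcl2l11, chr2:128125788-128126037, plus strand: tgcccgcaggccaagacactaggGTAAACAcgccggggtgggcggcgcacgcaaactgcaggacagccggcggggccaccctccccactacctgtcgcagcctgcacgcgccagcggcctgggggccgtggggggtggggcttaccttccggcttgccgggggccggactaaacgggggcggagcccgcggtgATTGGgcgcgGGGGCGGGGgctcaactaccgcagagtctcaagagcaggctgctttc

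Both strands of the 16 windows of the 10 members were searched for 12 motifs, and the share of all 32851 windows of this length in the RefSeq table is given for each. The bases just after the start were found in a transcript of the same gene for 13 of the 16 windows, so the start is less certain for the rest. The window of Bid held a GC box (GGGGCGGGG, in 10.4% of all windows) that opens 34 bases before the start. The window of Bcl2l11 held a FOXO core (TGTTTAC, 3.17%) on the opposite strand, 227 bases before the start, and closer to the start a CCAAT box (CCAAT, 33.8%) on the opposite strand and a GC box. None of the 3 Bcl2l1 windows held any of the 12. Over all members the GC box was found for Bcl2, Bcl2l2, Bcl2l11, Bid and Hrk, which include genes that rose, fell and were not tested, and the CCAAT box for Bcl2l11, Bad and Bmf. The p53 half-site (7.13%) was found for Bmf alone, and the ATF4 composite (TGATGNAA, 3.45%) for Hrk alone. No member window held an E-box (CACGTG, 6.02%), AP-1 site (TGANTCA, 6.75%), CRE (TGACGTCA, 1.55%), CArG box (1.47%), ETS site (CCGGAAGT, 2.88%), NRF1 site (0.782%) or NF-kB site (0.0852%). A match describes the letters only.

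The order of levels, which rests on the deposited gene lengths, shifted with these differences. In the Nat10flox/flox libraries the members ran, by mean FPKM, Mcl1, Bak1, Bad, Bcl2l2, Bcl2l1, Bcl2l11, Bcl2, Bmf, Bid and Hrk. Bad, Bcl2l2 and Bcl2l1 overlapped with their neighbours in that order, as did Bcl2, Bmf and Bid. In the libraries labelled Nat10-CKO the order was Mcl1, Bak1, Bcl2l1, Bad, Bcl2l2, Bcl2, Bid, Bmf, Bcl2l11 and Hrk, in which Mcl1 and Bak1 overlapped, as did Bcl2l2, Bcl2 and Bid, and Bmf and Bcl2l11. The genes most like Bcl2l1, the called member with the smallest adjusted p, were Sf3b4, a splicing factor, Nop53, a ribosome assembly factor, and Pcbp1, an RNA-binding protein, each with a Pearson r of 0.998 on log2(FPKM + 1) over the 6 libraries. The difference between the groups sets most of such an r.

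Other genes of the pathway, from lists drawn up with earlier results known, were called in both directions. Calls in each list are to be read against all tested genes, of which 24.4% were higher and 16% lower. Of 12 tested other BCL2 family genes 3 were higher (Bax, Bcl2l13 and Bnip3) and 1 was lower (Bcl2l12), with a median log2 fold change of -0.16. Bcl2l12 fell from 4.5 ± 0.127 to 2.41 ± 0.366 FPKM (SD, n = 3 per group, adjusted p = 0.00365 by limma). Bcl2l13, a mitophagy receptor, was 14.3 ± 1.38 and 20.4 ± 3.53 FPKM and Bnip3, another, 58.7 ± 0.285 and 73.1 ± 3.31 FPKM (SD, n = 3 per group, adjusted p = 0.0383 and 0.0421 by limma). The list had 2 calls in place of 4 when any single library other than Nat10-CKO replicate 1 was left out. The balance turned with the scaling: the list had 1 higher and 3 lower with mitochondrially encoded genes left out, 1 and 2 under quantile normalization, and 1 and 1 under median-of-ratios scaling. Bcl2l13 passed under 10 of 20 alternatives and Bnip3 under 9 of 20. Bbc3, which encodes PUMA, was 2.26, 1.25 and 1.48 FPKM against 1.37, 2.79 and 1.78 FPKM, with no call (limma adjusted p = 0.61), and the near-identical Bcl2a1 copies, whose reads are uncertain, did not pass either.

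In the list of apoptosome, caspase and inhibitor genes, 7 of 19 tested were lower and 2 higher (median log2 fold change -0.37). The list also holds the mitochondrial channel genes Vdac1, Vdac2 and Vdac3 and the genes Cycs, Aifm1 and Endog. Among these, Vdac2 was called higher and Aifm1 lower (adjusted p = 0.0223 and 0.0432 by limma). The counts and the median are therefore not a result for caspase genes alone. The shares over all tested genes were 16% lower and 24.4% higher. Casp6, an executioner caspase gene, fell from 6.43 ± 1.13 to 3.22 ± 0.306 FPKM (SD, n = 3 per group, adjusted p = 0.00487 by limma). Dffb, the nuclease that cuts DNA in apoptosis, fell from 3.01 ± 0.320 to 1.41 ± 0.114 FPKM (SD, n = 3 per group, adjusted p = 0.00332 by limma). Htra2, a mitochondrial protease that antagonises caspase inhibitors once released, rose from 12.2 ± 2.17 to 24.6 ± 2.50 FPKM (SD, n = 3 per group, adjusted p = 0.00358 by limma). Leaving out Nat10flox/flox replicate 1, 2 or 3 or Nat10-CKO replicate 2 left 4, 5, 5 and 5 called genes in this list in place of 9. With protein-coding genes rescaled the list had 5 higher and 4 lower, and with mitochondrially encoded genes left out 1 and 10.

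Death receptor genes were higher for 4 and lower for 2 of 14 tested. These counts are near the shares over all tested genes, 24.4% higher and 16% lower. Traf2, an adaptor of TNF receptors, rose from 3.94 ± 0.510 to 11.7 ± 1.5 FPKM, Fadd, the adaptor that recruits caspase-8, from 6.89 ± 0.992 to 17 ± 4.78 FPKM and Tnfrsf1a, the main TNF receptor, from 29.4 ± 2.89 to 59.4 ± 17.8 FPKM (SD, n = 3 per group, adjusted p = 0.000602, 0.00655 and 0.0125 by limma). Tnfsf10, the ligand TRAIL, fell from 8.03 ± 2.75 to 2.25 ± 1.07 FPKM (SD, n = 3 per group, adjusted p = 0.0093 by limma). The median log2 fold change of this list was 0.07, and with mitochondrially encoded genes left out it had 3 higher and 4 lower.

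Of 21 genes listed as regulating the members or binding their products, 5 were higher and 2 lower, with a median log2 fold change of 0.06. The higher calls include Pabpn1, whose span overlaps that of Bcl2l2, so its reads are uncertain and no regulation of the members by it was tested. Bag3, a co-chaperone that also binds BCL2, rose from 84.9 ± 2.42 to 327 ± 42.9 FPKM (SD, n = 3 per group, adjusted p = 0.000274 by limma). Several genes of this list encode enzymes that act on MCL1 protein. Usp9x, a deubiquitinase, rose from 6.10 ± 0.0277 to 14.4 ± 1.58 FPKM, Huwe1, a ubiquitin ligase, rose from 14.0 ± 0.519 to 21.5 ± 1.92 FPKM, and Fbxw7, a ubiquitin ligase subunit, fell from 8.48 ± 0.610 to 5.15 ± 0.587 FPKM (SD, n = 3 per group, adjusted p = 0.000569, 0.00538 and 0.00496 by limma). The ubiquitin ligase genes Trim17 and Btrc, named after their values were seen, were not called (limma adjusted p = 0.242 and 0.797), and the groups overlapped for both. Over all tested genes 24.4% were higher and 16% lower, so the higher calls in the list were near the share of all genes. The split of its calls depended on the scaling. It was 3 higher and 4 lower when mitochondrially encoded genes were left out or under median-of-ratios scaling. It was 4 and 4 under quantile normalization, and 3 and 3 with scaling by total reads.

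**Figure D4:**
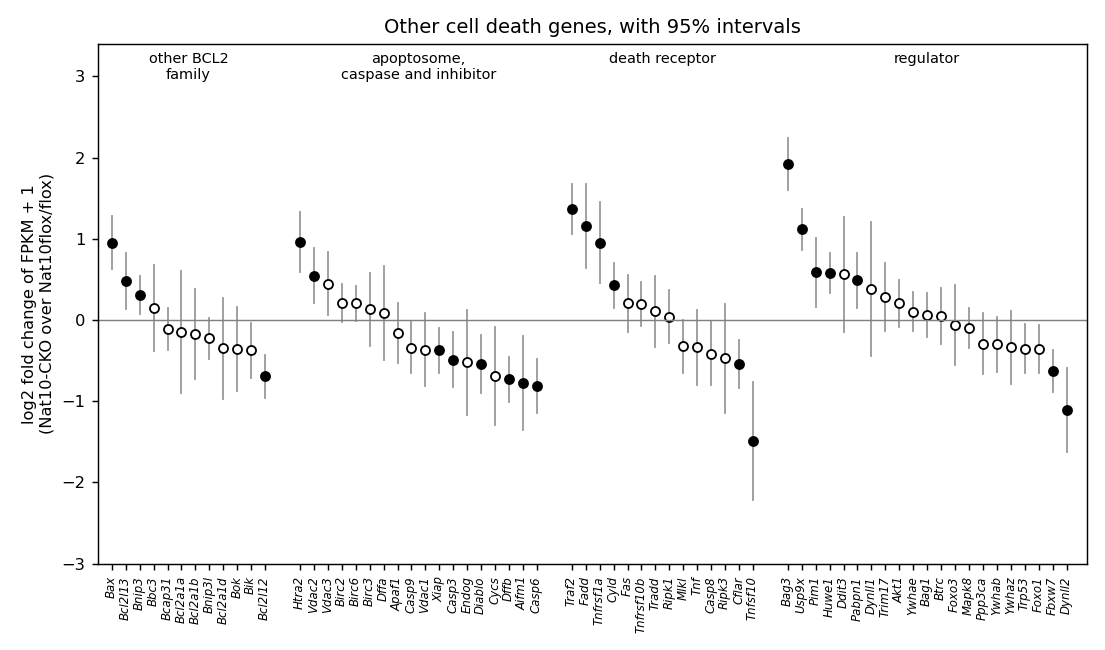
Log2 fold change of FPKM + 1, with 95% intervals, for the tested genes of 4 lists of cell death genes, except 1 gene that is not shown (3 libraries per group); filled circles passed the threshold. Each list holds genes on both sides of 0, with Bag3 the highest, rising from 84.9 to 327 FPKM, and Tnfsf10 the lowest, falling from 8.03 to 2.25 FPKM.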

How the data were processed

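Hearts of 3 Nat10flox/flox and 3 Nat10-CKO mice were profiled. Per the series' design text, HISAT2 2.2.1 aligned the reads to GRCm39 and featureCounts 2.0.6 counted them; CASAVA and DESeq2 1.42.0 appear in the submitters' processing notes too. The authors deposited FPKM, 1 column per library, with gene coordinates and lengths. Neither the strand setting nor the length definition is given in the sources used here, which makes overlapping genes and comparisons of level between genes uncertain. Multiplied by length, 100% of FPKM values were whole multiples of what 1 read is worth (tolerance 0.01 read), and reads were recovered from this; 1 read per kb equals 0.0246 to 0.0316 FPKM.

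The comparison used limma 3.58.1 under R 4.3.3 (lmFit, eBayes with a trend, two-sided) on log2(FPKM + 1) over genes with a mean of at least 1 FPKM, with Benjamini-Hochberg adjustment over all genes tested. Log2 fold changes on this scale understate the change of low genes; folds are ratios of mean FPKM. The members and lists were chosen with earlier results of these data known. All 10 members, Nat10, up to 4 genes of each list with the smallest adjusted p, and the 3 genes most like the member with the smallest adjusted p were to be named. Bbc3, Pabpn1, Cox4i2, Ggnbp1, Dynll2, Trim17 and Btrc were added after their values were seen, and the motifs were chosen with the values known. Birc5, Pmaip1, the Bcl2a1 copies, Vdac1, Vdac2, Vdac3, Cycs, Aifm1, Endog, Gpr137, Dynll1, Tnni3 and Pln were named outside that rule too. The labels give no batch. The test was tried on simulated data with the same dispersion for all genes and no outlying library, so that trial does not cover the spread between libraries seen here. Alternatives covered pseudocount, filter, scaling, trend, array weights, voom on recovered reads, single libraries left out, a replicate block and a minimum fold change; scaling by total reads and the fit without both outlying libraries were chosen after seeing the data. A gene that the naming rule would take is not reported here. Plots were made in matplotlib 3.10.9.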

Additional observations from a re-analysis of the deposited data

How the results depend on the processing

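Of 8 counts under 21 alternatives, 126 of 168 values lay within 1.5 times the reported count. Mitochondrially encoded genes took 16.6%, 17.7% and 18.3% of the reads in genes in the Nat10flox/flox libraries. They took 7.56%, 8.18% and 9.26% in those labelled Nat10-CKO. Scaling bears most on direction: the median log2 fold change of all tested genes was 0.03 as deposited, 0.17 with protein-coding genes rescaled and -0.12 with mitochondrially encoded genes left out, and higher calls made up 60.4%, 72.4% and 41.7% of all calls. Relative to those shifts Bcl2l1 and Bid kept their calls, Bak1 lost its call with mitochondrially encoded genes left out, and Bcl2l2 and Bcl2l11 lost theirs with protein-coding genes rescaled.

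Members called higher, 4 as reported, were 2 of 5 tested at a mean of at least 5 FPKM, 2 with a minimum fold (log2 change of 1), and 2 to 5 with 1 library left out. Members called lower, 2 as reported, were 1 with no filter, 1 at a mean of at least 5 FPKM, 0 with protein-coding genes rescaled, 1 under quantile normalization, 0 at the minimum fold change, and 1 to 2 with 1 library left out. Over all genes 960 were higher and 560 lower at the minimum fold change; 1159 were lower at a mean of at least 5 FPKM, 3007 with array weights and 2955 without mitochondrially encoded genes; with 1 library left out 2120 to 3104 were higher and 1162 to 1951 lower, the fewest lower without Nat10flox/flox replicate 2 (1165) or 3 (1162). Other BCL2 family genes called, 4 as reported, were 2 under median-of-ratios scaling, 2 without both libraries that stand apart, 0 at the minimum fold change and 2 to 4 with 1 library left out. Apoptosome, caspase and inhibitor genes, 9 as reported, were 5 with no filter, 4 at a mean of at least 5 FPKM, 14 with array weights, 0 at the minimum fold change and 4 to 10 with 1 library left out. Death receptor genes, 6 as reported, were 3 at the minimum fold change and 5 to 7 with 1 library left out; regulator genes, 7 as reported, were 12 with array weights, 3 at the minimum fold change and 5 to 8 with 1 library left out. The fewer genes tested account for part of the lower counts at 5 FPKM; otherwise the cause was not tested.

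With the replicate block 4 members were higher and 1 lower, Bcl2l11 having an adjusted p of 0.0855, and 2666 genes were higher and 1724 lower. The labels do not say that the numbers pair mice. The deviations of same-numbered libraries correlated at 0.06, 0.04 and 0.11 over the tested genes, and not every library correlated best with its own number. With 3 libraries per group such correlations cannot decide whether mice were paired.

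Low levels limit Bid, with 52 reads in its lowest library, and Hrk, with 10 to 31 reads per library, for which a difference was not detectable at this depth.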

Other observations

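Several cell death genes were outside the test because of their low levels and are given as values. Birc5, which encodes survivin, was 0.777, 0.795 and 1.14 FPKM in the Nat10flox/flox libraries and 0.326, 0.438 and 0.345 FPKM in those labelled Nat10-CKO, with no overlap. Among the tested genes 24.4% separated in that direction. Pmaip1, which encodes the BH3-only protein NOXA, was 0.342, 0.524 and 0.498 FPKM against 0.266, 0.401 and 0.687 FPKM, so the groups overlapped. Unlike these, Dynll2, which encodes a dynein light chain that binds BMF, was tested, and it was chosen after its values were seen. Dynll2 was 201, 165 and 194 FPKM in the Nat10flox/flox libraries and 61.5, 102 and 99.8 FPKM in those labelled Nat10-CKO. It fell by 1.11 on the log2 scale (adjusted p = 0.00774 by limma).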
